A study of Mus musculus with 4 samples.

Results

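Fatty acid uptake and activation was followed through 10 genes, taken by symbol and matched to their Entrez identifiers: the membrane protein gene Cd36, the fatty acid binding protein genes Fabp1 and Fabp4, the fatty acid transport protein genes Slc27a1, Slc27a2 and Slc27a4, and the long-chain acyl-CoA synthetase genes Acsl1, Acsl3, Acsl4 and Acsl5. All 10 were present among the 27179 genes counted and all 10 passed the filter on low counts. The data are bulk RNA sequencing counts of mouse liver in 2 fasted and 2 non-fasted libraries. Both groups were labelled as male wild type C57BL/6 mice (C57BL/6J in the treatment text) matched for age, with no age stated. The comparison asked how an overnight fast alters liver gene expression with no drug given. The fasted mice had gone overnight with water alone, and the non-fasted mice had food and water at all times. The groups are those of the sample titles, while another label field gives fasting for all 4 libraries. Which mouse each library came from is not stated, and p-values therefore reflect the spread between 2 libraries of a group, which may be technical only.

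During a fast, fatty acids released from adipose tissue reach the liver bound to albumin. CD36 and the transport proteins of the SLC27 family (FATPs) bring long-chain fatty acids into the cell, and several FATPs also join them to coenzyme A. Fatty acid binding proteins (FABPs) carry them through the cytosol, FABP1 in hepatocytes and FABP4 mainly in adipocytes, capillary endothelium and macrophages. Long-chain acyl-CoA synthetases (ACSLs) then form the acyl-CoA esters, a step called activation, from which both oxidation and glycerolipid synthesis start. Many of these genes are known targets of PPARα, a nuclear receptor that fatty acids activate and that binds DNA with RXR at a direct repeat of the hexamer AGGTCA separated by 1 base (DR1).

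Cd36, Fabp1, Slc27a2 and Acsl1 were the members higher in fasted livers under each of the 3 scalings used. The regions before the start sites of the first 3 are shown, since each held a match in the search below. Those of Acsl1 held none and are not shown. RefSeq (build GRCm38.p6) gave 12 promoters for 9 of the 10 genes, and Fabp4 was not matched. The 250 bases before each start were searched on both strands for AGGTCANAGGTCA with at most 2 mismatches in its 12 fixed letters and for the single hexamer AGGTCA, which the repeat contains, and on the strand of the gene for TATAAA. Fabp1 (chr6:71199629-71199878, plus strand) held the repeat with 1 mismatch, on the opposite strand and from position -67 relative to the start, and TATAAA at -30. Cd36 (chr5:17835897-17836146, minus strand) held it with 2 mismatches, also on the opposite strand, from -63. Slc27a2 (chr2:126552774-126553023, plus strand) held no such repeat and 1 hexamer, from -220. The hexamer was present in the Fabp1 and Cd36 windows too, in Cd36 outside the repeat and in Fabp1 both within and outside it. Capitals mark the repeat in Fabp1 and Cd36 and the hexamer in Slc27a2, while hexamers outside a repeat are left in small letters.
Fabp1: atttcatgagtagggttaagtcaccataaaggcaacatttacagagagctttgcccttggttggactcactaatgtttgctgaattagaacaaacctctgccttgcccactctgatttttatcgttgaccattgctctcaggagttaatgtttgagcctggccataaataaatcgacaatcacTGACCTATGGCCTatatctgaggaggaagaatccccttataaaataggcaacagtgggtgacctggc
Cd36: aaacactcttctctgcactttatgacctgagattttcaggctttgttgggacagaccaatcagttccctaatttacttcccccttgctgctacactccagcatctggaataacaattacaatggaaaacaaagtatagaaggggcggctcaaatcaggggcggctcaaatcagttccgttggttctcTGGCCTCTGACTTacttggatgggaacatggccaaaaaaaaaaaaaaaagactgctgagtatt
Slc27a2: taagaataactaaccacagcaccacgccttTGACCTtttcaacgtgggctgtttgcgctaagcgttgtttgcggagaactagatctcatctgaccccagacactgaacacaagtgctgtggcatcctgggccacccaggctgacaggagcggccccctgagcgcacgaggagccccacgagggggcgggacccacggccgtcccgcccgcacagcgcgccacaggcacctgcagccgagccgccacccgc
Of 32851 mouse promoters of the same length, 0.484% held the repeat with at most 1 mismatch, 3.24% with at most 2, 14.02% held the hexamer and 7.59% held TATAAA. Neither the repeat nor the hexamer nor TATAAA was found in the windows of the other 6 genes with a promoter, Acsl1 included. Members also differed in CG pairs, with 2 in the Fabp1 window, 3 in Cd36, 19 in Slc27a2 and 28 in Acsl3, against a median of 6 over all promoters. A match of letters is a description of the window and not a measured binding site.

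The libraries differed in more than feeding, and this touched every comparison below. Total counts were 13541405 and 13528015 in the fasted libraries, against 36975921 and 36943535 in the non-fasted libraries. The 16 trophoblast markers summed to 8 and 6 counts in the fasted libraries, with 13 of 16 at 0 in each, while in the non-fasted libraries they took 4.37% and 4.40% of all counts, with only Synb at 0. Of 5 decidual stroma markers only Hand2 had counts in the fasted libraries (56 and 54), whereas all 5 were present in the non-fasted libraries and summed to 86786 and 88280 counts. Xist, a non-coding RNA that coats the silenced X chromosome in female cells, had 2 and 1 counts in the fasted libraries and 25772 and 26316 in the non-fasted libraries, against the male label. All 14 hepatocyte markers were detected in each library, and they took 14.1% of the counts of either fasted library and 5.71% and 5.68% of those of the non-fasted libraries. Fasting and the placental and decidual RNA therefore cannot be told apart by the grouping, and in bulk RNA fewer cells of a type and less RNA per cell cannot be told apart either.

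For this reason each fold change is given under 3 scalings: the median of ratios over all tested genes, total counts, and the 14 hepatocyte markers, which sets their geometric mean equal in all libraries. So scaled, the log2 fold changes of the 14 markers themselves ranged from -0.25 to 0.41, and whether they respond to fasting was not tested. Relative to the median of ratios, the median log2 fold change of all genes shifted by -0.50 with total counts and by -1.85 with the hepatocyte markers. Unless another test is named, p-values are from edgeR's quasi-likelihood test over 15470 genes with Benjamini-Hochberg adjustment at 0.05. After median-of-ratios scaling, 7 members were higher and 3 lower in fasted livers, at a median log2 fold change of 0.90. Of all genes, 37.2% were called higher and 45.0% lower. With total counts, 6 members were higher and 4 lower, against 22.9% and 62.7% of all genes. With hepatocyte-marker scaling 4 were higher and 6 lower, against 3.88% higher and 91.6% lower among all genes. Cd36, Fabp1, Slc27a2 and Acsl1 were higher and Fabp4, Slc27a1 and Acsl3 were lower under each of the 3 scalings, whereas Slc27a4 and Acsl5 turned lower with the hepatocyte markers and Acsl4 with both other scalings. With the hepatocyte markers, Cd36 (0.54) and Fabp1 (0.49) lay only a little above the largest value of those markers themselves (0.41). Libraries of a group lay so close together, with a biological coefficient of variation of 0.00988 in common, that small differences passed the test. With a coefficient of variation held at 0.1 for every gene in edgeR's likelihood ratio test, 6 members were higher and 2 lower, against 32.4% and 40.9% of all genes. With it held at 0.4, 4 members remained higher (Cd36, Fabp1, Slc27a2 and Acsl1) and 1 lower (Fabp4), against 10.7% and 23.9% of all genes.

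**Figure D1:**
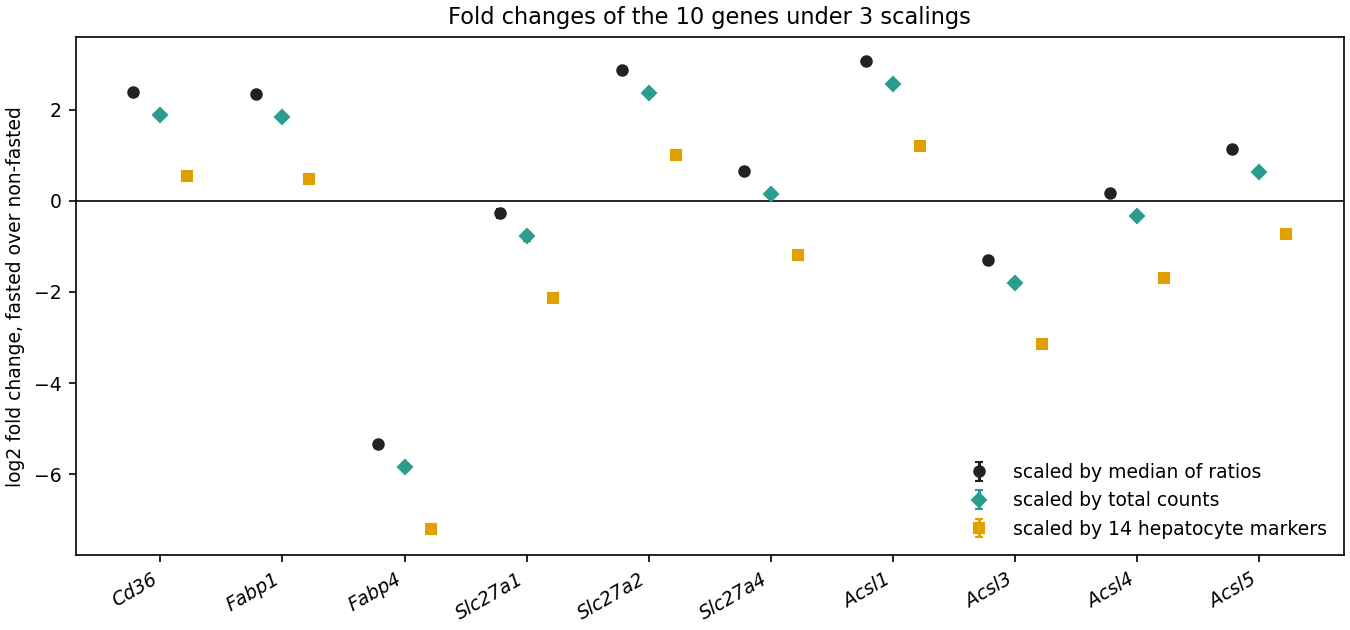
The vertical axis gives the log2 ratio of fasted over non-fasted livers for each of the 10 genes under 3 scalings, with bars for the standard error of edgeR's quasi-likelihood fit, mostly smaller than the symbols. Acsl1 runs from 3.07 by median of ratios to 1.22 by hepatocyte markers and stays above 0, Fabp4 runs from -5.35 to -7.20, and Acsl5 crosses 0 from 1.14 to -0.72.

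At the plasma membrane, Cd36 and Slc27a2 were higher in fasted livers. Cd36 (Entrez gene 12491, chromosome 5), a scavenger receptor that facilitates fatty acid uptake, had 953 and 932 counts in the fasted libraries, against 710 and 675 in the non-fasted libraries. Scaled to a library total of 1000000 (CPM) these were 70.4 and 68.9 in fasted livers and 19.2 and 18.3 in non-fasted livers, so that the groups did not overlap and libraries of a group differed little. The log2 fold change was 2.40 (SE 0.043, adjusted p = 8.1e-11, edgeR), a 5.27-fold higher normalized count, and 0.54 (SE 0.044) with hepatocyte-marker scaling. CD36 is known from several liver cell types, and their markers moved as well. The 5 Kupffer cell markers, led by Cd5l and Clec4f, summed to 281 and 274 CPM in fasted livers and 88.2 and 85.0 in non-fasted livers. All 5 were higher, against 37.2% of all genes, and also with hepatocyte-marker scaling, against 3.88%. For each 100 counts of these 5 genes, Cd36 had 25.03 and 25.15 counts in fasted livers and 21.77 and 21.50 in non-fasted livers, and scaled to them its log2 fold change was 0.07 (adjusted p = 0.178, edgeR, a scaling chosen after the data had been seen). Of the 5 markers of liver sinusoidal endothelium 4 were higher and 1 lower, against 37.2% and 45.0% of all genes. With hepatocyte-marker scaling 2 were higher and 3 lower, against 3.88% and 91.6%. The 5 summed to 195 and 190 CPM in fasted livers and 87.8 and 85.4 in non-fasted livers. For each 100 of their counts Cd36 had 36.2 and 36.3 in fasted livers and 21.9 and 21.4 in non-fasted livers. Per 100 counts of 9 general endothelial markers it had 38.1 and 36.8 in fasted livers and 2.60 and 2.49 in non-fasted livers. Scaled to those 9, also a choice made after the data had been seen, the log2 fold change of Cd36 was 3.49. Which cells the Cd36 RNA came from was not tested.

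Slc27a2 (Entrez gene 26458, chromosome 2), which encodes FATP2, a transporter and very long-chain acyl-CoA synthetase of liver, had 24128 and 24069 counts in the fasted libraries and 12706 and 12738 in the non-fasted libraries. It thus had more counts in the fasted libraries although these were sequenced less deeply. Its normalized count was 47430 ± 45.1 in fasted livers and 6464 ± 14.8 in non-fasted livers (SD, n = 2 each), a log2 fold change of 2.88 (SE 0.018, adjusted p = 1.0e-13, edgeR), and 1.02 with the hepatocyte markers set equal. Slc27a4 (Entrez gene 26569, chromosome 2), which encodes FATP4, had 36.3 and 35.3 CPM in fasted livers and 32.4 and 31.8 in non-fasted livers. The groups lay next to each other, and the log2 fold change moved with the scaling, being 0.66 (SE 0.045) for the median of ratios, 0.16 for total counts and -1.19 for the hepatocyte markers. Slc27a1 (Entrez gene 26457, chromosome 8), which encodes FATP1, best known from muscle and adipose tissue, had 136 and 139 counts in the fasted libraries and 684 and 603 in the non-fasted libraries. After median-of-ratios scaling it averaged 271 ± 4.90 normalized counts in fasted livers and 327 ± 28.9 in non-fasted livers (SD, n = 2 each), a log2 fold change of -0.27 (SE 0.10, adjusted p = 0.0355, edgeR). This call was not stable: it was lost without either fasted library (adjusted p = 0.333 without replicate 1 and 0.232 without replicate 2), without non-fasted replicate 1 (0.0814), and by DESeq2 (0.0978). The log2 fold change of Slc27a1 was -0.78 with total counts and -2.13 with the hepatocyte markers.

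**Figure D2:**
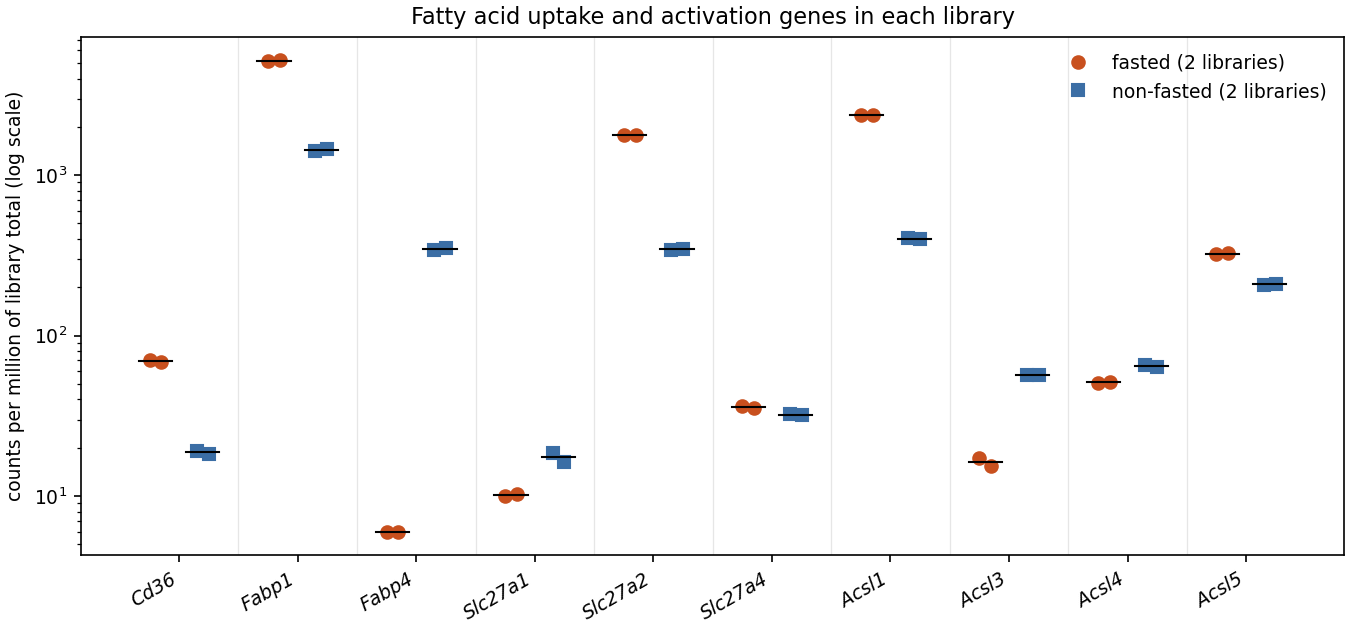
Counts scaled to a library total of 1000000 (CPM, log axis) of the 10 genes in each of the 4 libraries, fasted as circles on the left of each gene and non-fasted as squares on the right, with a line at each group's mean. Fabp4 lies at 5.98 and 5.99 in fasted livers and 340 and 351 in non-fasted libraries, the widest gap, while Slc27a4 lies at 36.3 and 35.3 in fasted livers and 32.4 and 31.8 in non-fasted livers.

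A share of counts within 1 library does not depend on how libraries are scaled against each other. It does still include the placental and decidual RNA that the non-fasted libraries held. Of all SLC27 counts, Slc27a2 took 62.7% (exact 95% interval 62.3 to 63.2%) and 62.8% (62.3 to 63.3%) in the fasted libraries, against 38.6% (38.1 to 39.1%) and 39.1% (38.5 to 39.6%) in the non-fasted libraries. These intervals cover counting error only, and an exact permutation test of 2 against 2 libraries cannot give a p under 0.33. Slc27a5, the bile acid-CoA ligase of liver and no member of the list, took 35.6% in either fasted library and 48.8% and 48.5% in the non-fasted libraries. The ratio of Slc27a2 to Slc27a5, both best known from hepatocytes, was 1.76 and 1.77 in fasted livers and 0.791 and 0.806 in non-fasted livers, so Slc27a2 stood higher against another hepatocyte transporter too. Slc27a4 took 1.28% and 1.25% of the family in fasted livers and 3.64% and 3.60% in non-fasted livers. For Slc27a1 these shares were 0.354% and 0.363% in fasted livers and 2.08% and 1.85% in non-fasted livers. The family also held Slc27a6, with 0 and 3 counts in the fasted libraries and 2152 and 2201 in the non-fasted libraries.

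Among the carriers of the cytosol, Fabp1 and Fabp4 went in opposite directions. Fabp1 (Entrez gene 14080, chromosome 6), the liver form, had 69278 and 70261 counts in the fasted libraries and 52550 and 53795 in the non-fasted libraries. That is 5116 and 5194 CPM in fasted livers and 1421 and 1456 in non-fasted livers, with a wide gap between groups. The log2 fold change was 2.35 (SE 0.0090, or 0.014 with an exactly computed deviance, adjusted p = 3.5e-15, edgeR), or 5.08-fold, and 0.49 (1.40-fold) with the hepatocyte markers. Fabp4 (Entrez gene 11770, chromosome 3) had 81 counts in each fasted library, against 12585 and 12952 in the non-fasted libraries. It averaged 159 ± 0.428 normalized counts in fasted livers and 6487 ± 135 in non-fasted livers (SD, n = 2 each), a log2 fold change of -5.35 (SE 0.077, adjusted p = 2.1e-11, edgeR), that is 40.7-fold lower in fasted livers. This was the member with the widest difference, and it was lower under all 3 scalings. Fabp1 took 98.1% and 98.0% of all FABP counts in fasted livers and 77.6% and 77.7% in non-fasted livers, and Fabp4 0.115% and 0.113% in fasted livers and 18.6% and 18.7% in non-fasted livers. The ratio of Fabp1 to Fabp4 counts was 855 and 867 in fasted livers and 4.18 and 4.15 in non-fasted livers.

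Markers of the cells that FABP4 is known from moved with it in part. The 9 endothelial markers, led by Cdh5 and Kdr, summed to 185 and 187 CPM in fasted livers and 739 and 735 in non-fasted livers. Of them 2 were higher and 7 lower, against 37.2% and 45.0% of all genes. With hepatocyte-marker scaling 0 were higher and 9 lower, against 3.88% and 91.6%. For each 100 of their counts Fabp4 had 3.24 and 3.20 in fasted livers and 46.1 and 47.7 in non-fasted livers, and scaled to them, again a choice made after the data had been seen, its log2 fold change was -4.26. The 6 macrophage markers summed to 194 and 192 CPM in fasted livers and 994 and 997 in non-fasted livers. Of them 4 were higher and 2, Csf1r and Cd68, lower, against 37.2% and 45.0% of all genes. With hepatocyte-marker scaling 0 were higher and 4 lower, against 3.88% and 91.6%. For each 100 of their counts Fabp4 had 3.08 and 3.12 in fasted livers and 34.2 and 35.2 in non-fasted livers. Fabp4 was thus lower in fasted livers also against either set of markers. Of 6 adipocyte markers, Adipoq, Lep, Retn and Plin1 were at 0 in the fasted libraries. Lep was at 0 in the non-fasted libraries too, and Plin1 in non-fasted replicate 2. Adipoq, Retn and Plin1 had at most 6 counts in the non-fasted libraries, which were sequenced more deeply. The 2 adipocyte markers that were tested were both called higher in fasted livers, against 37.2% of all genes. With hepatocyte-marker scaling 1 was called higher, against 3.88%. Summed, the 6 reached 7.68 and 7.10 CPM in fasted livers and 1.92 and 2.11 in non-fasted livers, mostly from Adrb3 and Cfd. The part of adipocyte, placental and decidual RNA in the Fabp4 counts was not tested.

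Of the activating enzymes, Acsl1 was the most changed member upward and Acsl3 was lower. Acsl1 (Entrez gene 14081, chromosome 8), the main ACSL of liver and known from the mitochondrial outer membrane and the endoplasmic reticulum, had 32294 and 32279 counts in the fasted libraries and 14965 and 14768 in the non-fasted libraries. Its normalized count was 63546 ± 150 in fasted livers and 7553 ± 66.9 in non-fasted livers (SD, n = 2 each). The log2 fold change of 3.07 (SE 0.015, adjusted p = 2.3e-14, edgeR), or 8.41-fold, came down to 1.22 (2.32-fold) with the hepatocyte markers. Acsl5 (Entrez gene 433256, chromosome 19), which is known from mitochondria and the endoplasmic reticulum of liver and intestine, had 322 and 326 CPM in fasted livers and 207 and 210 in non-fasted livers. Its log2 fold change was 1.14 (SE 0.026, adjusted p = 4.4e-10, edgeR) and 0.63 with total counts, but -0.72 with the hepatocyte markers. Relative to those markers, Acsl5 was lower in fasted livers.

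Acsl3 (Entrez gene 74205, chromosome 1), which is known from the endoplasmic reticulum and lipid droplets, had 234 and 209 counts in the fasted libraries and 2094 and 2114 in the non-fasted libraries. Its log2 fold change was -1.29 (SE 0.056, adjusted p = 3.5e-08, edgeR), and it was -1.80 and -3.15 with total counts and hepatocyte markers. Acsl4 (Entrez gene 50790, chromosome X), which prefers arachidonic acid, had 684 and 699 counts in the fasted libraries and 2411 and 2354 in the non-fasted libraries. After median-of-ratios scaling it averaged 1361 ± 24.5 normalized counts in fasted livers and 1211 ± 19.9 in non-fasted livers (SD, n = 2 each), a log2 fold change of 0.17 (SE 0.038, adjusted p = 0.0029, edgeR). That small rise became -0.34 with total counts and -1.69 with the hepatocyte markers, and at a coefficient of variation of 0.1 it no longer passed (adjusted p = 0.308, edgeR's likelihood ratio test), so its direction rests on the scaling.

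Within each library the ACSL family was made up differently. Acsl1 took 86.0% (exact 95% interval 85.6 to 86.3%) and 85.9% (85.5 to 86.2%) of the ACSL counts in the fasted libraries, against 55.1% (54.5 to 55.7%) and 54.7% (54.1 to 55.3%) in the non-fasted libraries. Acsl5 took 11.6% and 11.7% in fasted livers and 28.3% and 28.7% in non-fasted livers. For Acsl4 the shares were 1.82% and 1.86% in fasted livers and 8.88% and 8.72% in non-fasted livers, and for Acsl3 0.623% and 0.556% in fasted livers and 7.71% and 7.83% in non-fasted livers. The ratio of Acsl1 to Acsl5 counts was 7.41 and 7.33 in fasted livers and 1.95 and 1.91 in non-fasted livers. The ratio of Acsl1 to Acsl4 was 47.2 and 46.2 in fasted livers and 6.21 and 6.27 in non-fasted livers, and that of Acsl1 to Acsl3 was 138 and 154 in fasted livers and 7.15 and 6.99 in non-fasted livers. Acsl1 was therefore higher in the fasted libraries against each of the other 3 ACSL members, without any scaling between libraries. Such ratios still include the placental and decidual RNA of the non-fasted libraries, and its part in the ACSL counts was not tested.

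**Figure D3:**
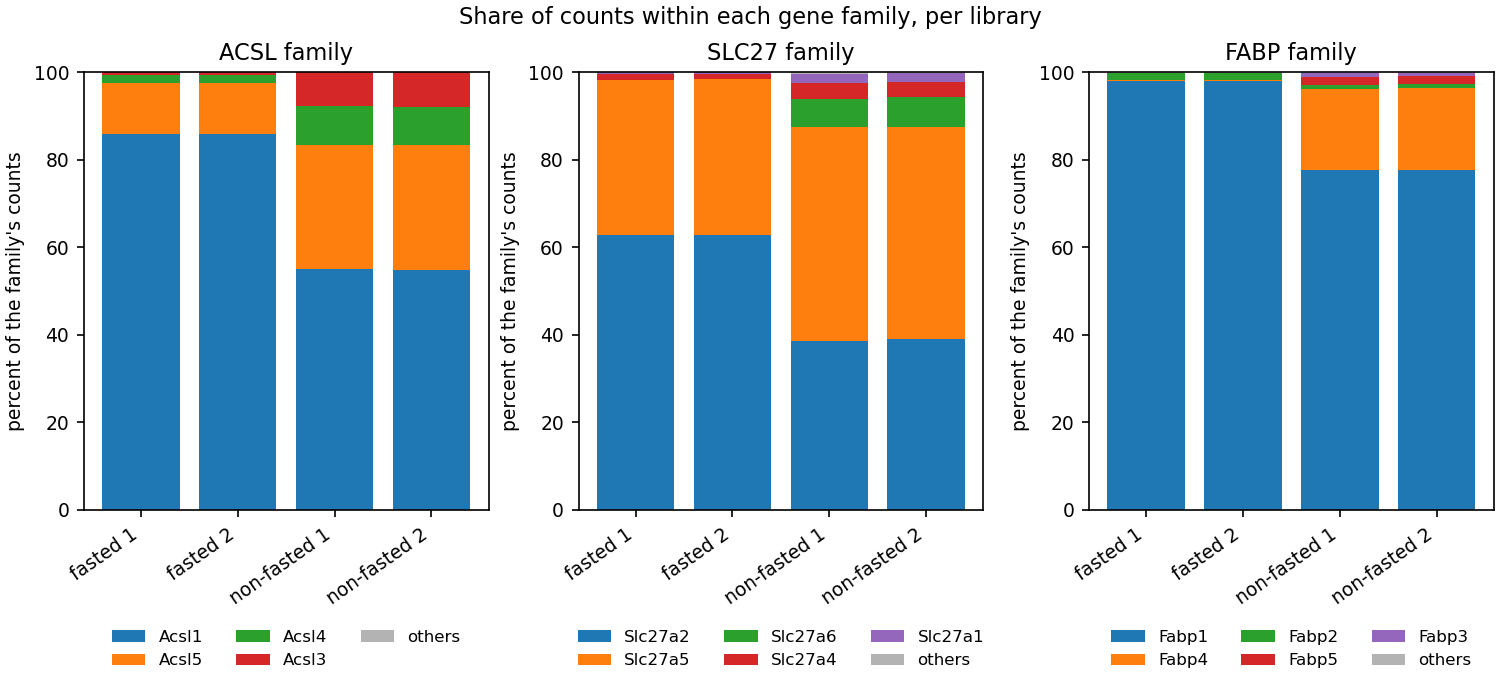
Share of each family's counts (percent, vertical axis) taken by each gene in each of the 4 libraries, the fasted pair on the left, for the ACSL, SLC27 and FABP families. Acsl1 takes 86.0% and 85.9% of ACSL counts in fasted livers and 55.1% and 54.7% in non-fasted libraries, and Fabp4 is visible only in the non-fasted libraries (18.6% and 18.7%). The shares in the non-fasted libraries include their placental and decidual RNA.

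Levels were compared between genes per kilobase of exon, as CPM divided by exon length. In fasted livers Fabp1 was highest, at 9251 and 9392, followed by Slc27a2 (611 and 610) and Acsl1 (572 and 572). Acsl5 (75.8 and 76.7) and Cd36 (19.9 and 19.5) came next, and the other 5 members lay between 3.54 and 9.70. The non-fasted libraries also held placental and decidual RNA, so their levels are not those of liver alone. There Fabp1 was again highest (2570 and 2633) and Fabp4 second (380 and 391), before Slc27a2 (118 and 118), Acsl1 (97.0 and 95.8) and Acsl5 (48.9 and 49.4). Acsl3 (14.3 and 14.5), Acsl4 (12.2 and 12.0) and Slc27a4 (7.99 and 7.84) followed. The order of Slc27a2, Acsl1 and Acsl5 was the same in both groups, whereas Fabp4 had a level of 6.68 in either fasted library. Cd36 was lowest in the non-fasted libraries, at 5.43 and 5.17, next to Slc27a1 (6.51 and 5.75). In fasted livers the lowest were Acsl3 (4.37 and 3.91) and Slc27a1 (3.54 and 3.62). Neighbours in either order did not overlap between libraries, and these differences between genes were not tested.

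Other genes of the pathway were taken as 52 genes in 6 lists, of which 45 were tested. Of these, 31 were higher, 13 lower and 1 was not called after median-of-ratios scaling, with a median log2 fold change of 1.28 against -0.13 for all genes, of which 37.2% were called higher and 45.0% lower. With the hepatocyte markers 9 were higher and 33 lower, where 3.88% of all genes were higher and 91.6% lower. The counts of each list are to be read against the same shares. All 8 vascular lipases and partners were called, 7 higher and 1 lower. Angptl4, an inhibitor of lipoprotein lipase, had 2450 and 2417 counts in the fasted libraries and 591 and 621 in the non-fasted libraries, a log2 fold change of 3.96, and it was the only one of the 8 higher with the hepatocyte markers (2.10). The endothelial lipase Lipg was lower at -0.75, and with the hepatocyte markers 6 of the 8 were lower.

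Of 7 other membrane transporters, 4 were higher and 3 lower (1 and 6 with the hepatocyte markers, where 91.6% of all genes were lower). Mfsd2a, a transporter of lysophosphatidylcholine, was higher by 3.09, and still by 1.24 with the hepatocyte markers. Slc27a5 was higher by 1.73 but at -0.13 with those markers, while Slc27a3, Slc27a6 and Cav1, the caveolin of endothelium and adipocytes, were lower (log2 fold change of -1.82 for Slc27a3 and -1.91 for Cav1). The value of Slc27a3 rests on few counts, 12 and 2 in the fasted libraries and 102 and 91 in the non-fasted libraries. Of 5 other FABPs tested, Fabp2 (2.88) and Fabp7 (2.16) were higher and Fabp3, Fabp5 and Fabp6 lower, and with the hepatocyte markers only Fabp2 was called higher (1.02). Fabp2, the intestinal form, had 1182 and 1210 counts in the fasted libraries and 622 and 636 in the non-fasted libraries, and so had, like Fabp1, more counts in the shallower libraries. Fabp3, the form of heart muscle, had 3 and 0 counts in the fasted libraries and 570 and 551 in the non-fasted libraries. Fabp6, the ileal form, had 0 counts in both fasted libraries and 31 and 40 in the non-fasted, at least 6.11-fold lower with a floor of 3 counts over the fasted group.

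After activation, acyl-CoA esters are held by acyl-CoA binding proteins. With the hepatocyte markers 1 of 6 tested was higher and 5 lower, against 3.88% and 91.6% of all genes. With the median of ratios 4 were higher and 1, Acbd3, lower (-1.13), against 37.2% and 45.0% of all genes, while Acbd6, named after its value was seen, was not called (-0.16, adjusted p = 0.126, edgeR). Acbd5, a tether of peroxisomes, was higher by 2.13 and by 0.28 with the hepatocyte markers, and Scp2, a peroxisomal thiolase and lipid carrier and the most abundant, by 1.80 but at -0.05 with those markers. Of 11 other acyl-CoA synthetases tested, 8 were higher and 3 lower, against 37.2% and 45.0% of all genes, and with the hepatocyte markers 2 were higher and 9 lower, against 3.88% and 91.6%. The medium-chain enzyme Acsm1, the most abundant, was higher by 1.63 and at -0.22 with the hepatocyte markers. The 3 that were lower were Acss1, the mitochondrial acetate enzyme (3 and 2 counts in the fasted libraries and 1061 and 998 in the non-fasted libraries), Acsbg1 (2 and 2 counts in the fasted libraries and 266 and 297 in the non-fasted libraries) and the acetoacetate enzyme Aacs (-0.88).

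Of 8 genes for nuclear receptors of the pathway and a coactivator, 6 were higher and 2 lower, against 37.2% and 45.0% of all genes, and with the hepatocyte markers 3 were higher and 4 lower, against 3.88% and 91.6%. Ppara had 5070 and 5134 counts in the fasted libraries and 2764 and 2661 in the non-fasted libraries, at a log2 fold change of 2.87 (SE 0.031, adjusted p = 4.1e-12, edgeR) and 1.01 with the hepatocyte markers. Hnf4a, a hepatocyte factor and the most abundant of the list, was higher by 2.06 and the xenobiotic receptor Nr1i2 by 2.26, while Pparg (-1.39) and Ppard (-1.96) were lower. A separate list of 6 genes known for their response to fasting was also counted. It was chosen with earlier results of these data known, so it is no independent check of the labels. Of these, 5 were higher under the median of ratios, against 37.2% of all genes, and 5 under the hepatocyte markers, against 3.88%. Among them were the ω-hydroxylase Cyp4a14 at 7.75 (its close paralogs may share reads) and the hepatokine Fgf21 at 5.14. The kinase Pdk4 was lower, at -0.82 and at -2.68 with the hepatocyte markers. All 14 hepatocyte markers were themselves higher under the median of ratios, by 1.61 to 2.27.

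**Figure D4:**
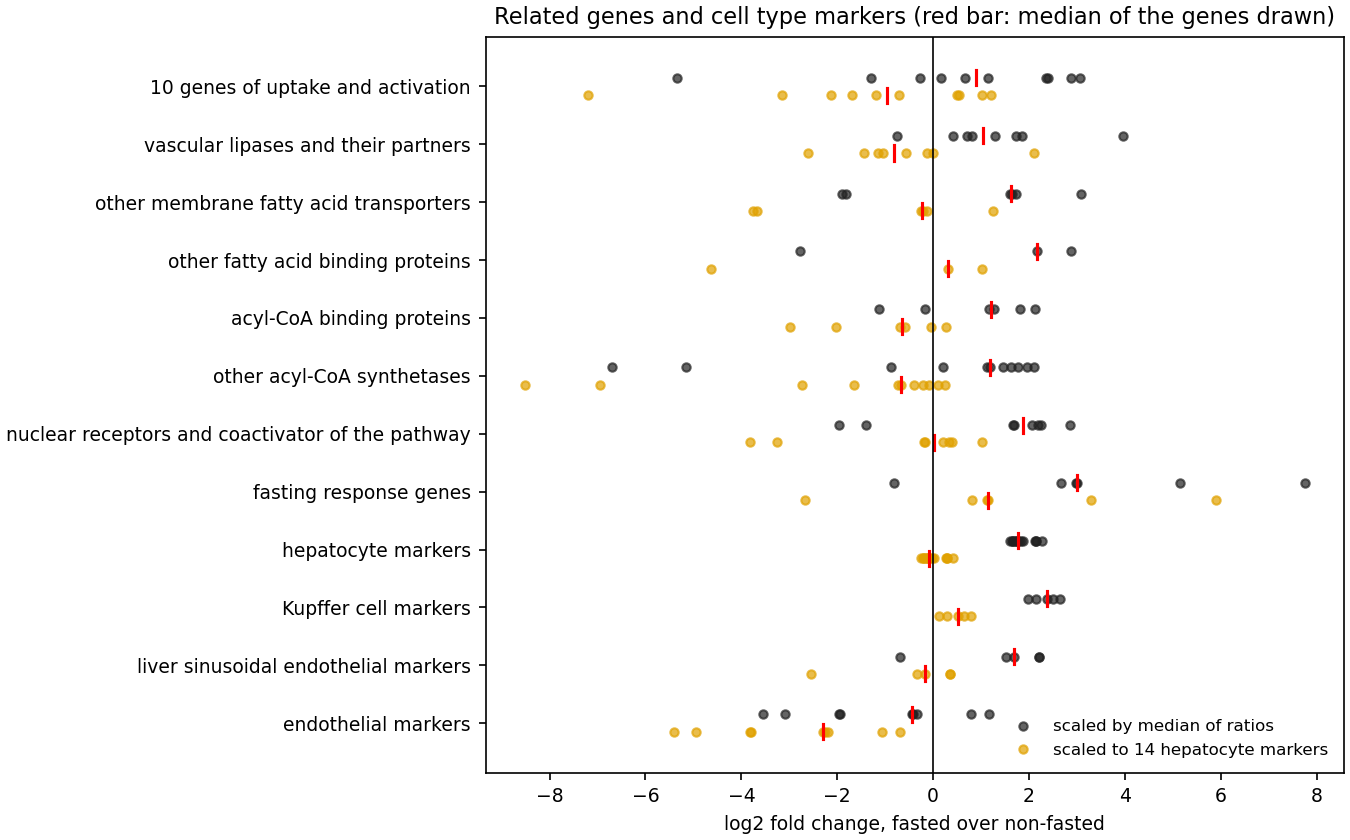
The horizontal axis gives the log2 ratio of fasted over non-fasted livers for single genes of the list of 10, in related lists and in cell type markers, after median-of-ratios scaling (dark points) and hepatocyte-marker scaling (light points), with a red bar at the median of the genes drawn. The 3 genes with at most 3 counts over both fasted libraries together, Fabp3, Fabp6 and Slc27a6, are not drawn, and the medians of the 10 genes are 0.90 and -0.95. Acsbg1 and Acss1, also near 0 counts in the fasted libraries, are drawn.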

How the data were processed

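Liver RNA, isolated as total RNA with the SV Total RNA kit, was measured in 2 fasted and 2 non-fasted libraries. The authors deposited raw counts per Entrez gene, not normalized, with 1 library per file. Per the labels, the build was GRCm39 and the submitters' tools were FastQC, MultiQC, Trimmomatic, STAR, featureCounts and DESeq2 1.32.0. No annotation, strand use or treatment of multi-mapping reads is given in the sources used, and reads of close paralogs or overlapping genes may be split or lost. Gene names came from RefSeq (GRCm38.p6), which matched 25275 of 27179 identifiers. Exon lengths came from GENCODE M21 protein-coding transcripts, so the build differs from that of the counts and the levels per kilobase are approximate. Totals were 13528015 to 36975921 counts per library.

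The comparison was made with edgeR 4.0.16 in R 4.3.3 (filterByExpr at its defaults, median-of-ratios scaling, quasi-likelihood test, two-sided, no covariate, adjusted p of 0.05), with limma 3.58.1 and DESeq2 1.42.0 as alternatives. Each standard error was derived from the F statistic and the fold change. The fit was tested on simulated data. A normalized count is the count over the library's size factor, given as mean and SD over 2 libraries. Libraries of a group differed beyond counting error (squared deviation per gene 1.11 in the fasted pair and 1.13 in the non-fasted pair, where counting error alone gives 1) and were kept as 2. This small excess does not show that the libraries of a group came from different mice.

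The 10 genes and all lists were chosen with earlier results of these data known. Named are the 10 genes, in each pathway list the 2 called genes with the largest absolute change, the gene with the highest mean count and those going against most of the list, and of marker lists the 2 with the highest mean count, with the others named only for a count of 0, for counts against their list or as part of a family. Some genes that this rule names are not reported here. Alternatives were TMM, upper quartile, total-count and hepatocyte-marker scaling, other filters, DESeq2, limma-voom, fixed coefficients of variation in edgeR's likelihood ratio test, an exactly computed deviance, thinning to the smallest total, leaving out the 20 most abundant genes, a replicate block and leaving out each library, and, chosen after the data had been seen, scaling to endothelial or Kupffer cell markers. Plots used matplotlib 3.10.9 and Python 3.11.15.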

Additional observations from a re-analysis of the deposited data

How the results depend on the processing

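Of 183 alternative values for the 10 genes, 163 kept direction and side of the threshold, 16 lost the call and 4 reversed: Acsl4 with total counts (-0.34) and hepatocyte markers (-1.69), and Slc27a4 (-1.19) and Acsl5 (-0.72) with hepatocyte markers. Of the lost calls, 10 were of Slc27a1 and 1 was of Cd36 (0.07 scaled to Kupffer cell markers), and the other 5 came with a fixed coefficient of variation, which took the calls of Acsl3, Acsl4, Acsl5 and Slc27a4 at 0.4 and of Acsl4 also at 0.1. The call of Slc27a1 was lost by upper quartile scaling (adjusted p = 0.197), no filter (0.106), DESeq2 (0.0978), limma-voom (0.0710), thinning (0.0934), a coefficient of variation fixed at 0.1 (0.145) or 0.4 (0.786) and without 3 of the 4 libraries, edgeR where not named, with fold changes of -0.37 to -0.19 when single libraries were left out.

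Among all genes, 5756 were higher and 6965 lower. These counts were 3550 and 9699 with total counts, 600 and 14163 with hepatocyte markers, and 1648 and 3691 with a fixed coefficient of variation of 0.4, and a stricter filter left 4419 lower because fewer genes were tested. Members higher numbered 4 with hepatocyte markers and with the fixed value of 0.4, and members lower 6 and 1. Other pathway genes numbered 9 higher and 33 lower with hepatocyte markers. Without single libraries, 5192 to 5311 genes were higher and 6066 to 6288 lower, 7 members were higher and 2 to 3 lower, and 31 pathway genes were higher and 12 to 13 lower. Among the listed genes alone, Slc27a2 took 97.5% of SLC27 counts in fasted livers and 87.4% in non-fasted livers, and Fabp1 took 99.9% of FABP counts in fasted livers, against 80.6% in non-fasted livers. Same-numbered libraries did not deviate together (correlation -0.0053 over 15470 genes), and with a replicate block 5743 genes were higher and 6929 lower, with 7 and 3 members. Depth allowed all 10 genes to be tested, and 2 libraries per group limit every estimate of spread.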
